A study of Mus musculus with 9 samples.

Results

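The collagen genes of the mouse were taken as the protein-coding genes of GENCODE vM1 whose symbol is Col, a number, the letter a and a number, such as Col1a1. The rule used no methylation value, though the set was chosen with earlier results of these data known, and it found 43 genes among 22380. Within their gene bodies and 2000 bp to each side, the reduced representation bisulfite sequencing (RRBS) table held 2471 of its 838481 CpG cytosines. RRBS cuts DNA at MspI (CCGG) and TaqαI (TCGA) sites, and bisulfite turns unmethylated cytosine into a base read as thymine, so that each cytosine gets a methylation level in percent of its reads. The question was whether these matrix genes carried different methylation in brown and white fat cells, and whether it changed as the cells became adipocytes.

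The brown lineage was represented by preadipocytes of the interscapular depot and the white lineage by preadipocytes of the inguinal depot, taken from BL6 mice of 3 weeks. The cells were the stromal vascular fraction of collagenase-digested tissue grown to confluence, so they were enriched in preadipocytes but not sorted. Cells harvested after day 0 had all received the inducers insulin, dexamethasone, isobutylmethylxanthine and rosiglitazone. Libraries, 9 in all, were made from BAT at days 0, 4 and 6, BAT + NE (BAT of day 6 with norepinephrine for 4 h before harvest), WAT at days 0, 4 and 6, and BWAT at days 4 and 6. BWAT cells were white preadipocytes differentiated in the presence of norepinephrine. Each condition was 1 library, and the labels do not state that different days were different cultures, so p-values here measure only the spread between these libraries. The depot and the lineage cannot be told apart, since each lineage came from 1 depot. A cytosine had at least 10 reads in every library, and its depth beyond that is unknown.

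Collagens are triple-helical proteins built of repeats in which glycine recurs at a fixed spacing. Fibrillar collagens (types I, III, V and others) form the cables of connective tissue, type IV forms the sheet of basement membranes, type VI forms beaded filaments around cells, and FACIT collagens decorate the surface of fibrils. Fat cells are each wrapped in a basement membrane and sit in a mesh of collagens I, III, V and VI, and preadipocytes are fibroblast-like cells that secrete much fibrillar collagen before they differentiate. Methylation of CpG-rich promoters usually goes with silence of a gene, while the bodies of active and inactive genes alike are often methylated.

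At least 1 cytosine was measured in 39 of the 43 genes. Col4a5 and Col4a6 lie on the X chromosome, which the table does not cover, and Col3a1 and Col10a1 had 0 cytosines. A promoter, from 1000 bp before to 500 bp after a protein-coding start site, was used where it held at least 2 cytosines. This left 28 promoter windows of 25 genes, with no window for Col1a1, Col3a1, Col4a1, Col4a2 or Col6a2. Gene bodies, the gene without its own promoter windows, were used for 38 genes, Col1a2 being measured in its promoter only. Of the 2471 cytosines, 414 lay in promoters, 2004 in gene bodies and 53 in flanks outside the promoter. Groups of 4 or more cytosines, each within 300 bp of the next, were treated as stretches, the closest view of a restriction fragment that the table gives, and 238 of the 67233 stretches overlapped a collagen gene or its flanks.

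Collagen promoters were mostly free of methylation and collagen bodies were mostly methylated. Among the 28 promoter windows, 18 were under 10% and 5 were over 70%, ranges that held 80.4% and 9.15% of all 11918 promoters. By these counts collagen windows were less often under 10% and more often over 70% than promoters at large. The median was 4.47%, against 1.27% over all promoters. The median number of measured cytosines was 13 in the collagen windows and 21 over all promoters. The 9 windows of fibrillar genes ran from 0.803% to 93.2% with a median of 3.06%. Col1a2, the second chain of type I collagen, had 2.22% over 14 cytosines, Col2a1 of cartilage 3.22% over 12 cytosines and Col5a2 3.06% over 5 cytosines. Col5a1, whose chain starts new fibrils, had its long-form window at 0.803% over 39 cytosines and a second window inside the gene at 93.2% over 6 cytosines. Col18a1, the multiplexin that yields endostatin, showed the same kind of contrast between start sites, with 1.60% at its long form over 25 cytosines and 42.3% at its short form over 10 cytosines. Col15a1, the other multiplexin, had 1.33% over 17 cytosines. The windows over 70% belonged to Col6a6, Col6a3, Col5a3 and Col9a1 besides the second one of Col5a1, and those of Col6a3 and Col5a3 rest on 2 cytosines each. The windows of Col4a3 and Col4a4, basement membrane chains best known from the kidney and transcribed away from each other, shared the same 22 cytosines, so the counts and medians of windows hold this 1 measurement under both genes, at 5.72%.

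Gene bodies had a median of 71.7%, against 72.5% over all 12525 bodies. Type VI bodies were the most methylated class, with a median of 82.5% over 6 genes, and the type IV bodies had 76.5% over 4 genes. The lowest 2 bodies were Col1a1 (18.3% over 41 cytosines) and Col8a2, a short-chain collagen of basement membranes (21.4% over 82 cytosines). These were the collagen bodies under 30%, a range that held 16.9% of all bodies. Over the cytosines of gene bodies, coding exons averaged 80.9% (585 cytosines) and introns 60.4% (1397 cytosines). Exons were above introns in 25 of the 30 genes with at least 2 cytosines of each kind, which is 83.3%, against 66.7% of 5033 genes in the whole table. The medians over genes were similar, at 82.3% in coding exons and 65.7% in introns of the 30 collagen genes. Over the 5033 genes they were 83.7% and 68.4%. In Col8a2 the coding exons stood at 92.9% and the introns at 14.7%, and in Col1a1 at 30.9% and 3.77%.

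Low stretches were not limited to promoters. Of the 238 stretches, 34 were under 10% (14.3%, against 22.8% of all stretches), and 16 of these, in 11 genes, lay outside the promoter windows. Intron 2 of Col8a2 held 3 of them, with 19, 31 and 10 cytosines at 1.58%, 3.71% and 3.15%, while a stretch of its exon 4 was at 94.2%. Others lay far inside long genes, at 42.0 and 99.5 kb from the start of Col13a1, a transmembrane collagen of the neuromuscular junction (6.73% and 6.32%), at 86.1 kb in Col15a1 (3.03%), at 72.9 kb in Col4a2 (3.49%) and at 219.7 kb in Col19a1 (3.69%). Of the 16, 1 passed the test between brown and white cells, the stretch of Col24a1 in intron 24.

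**Figure D1:**
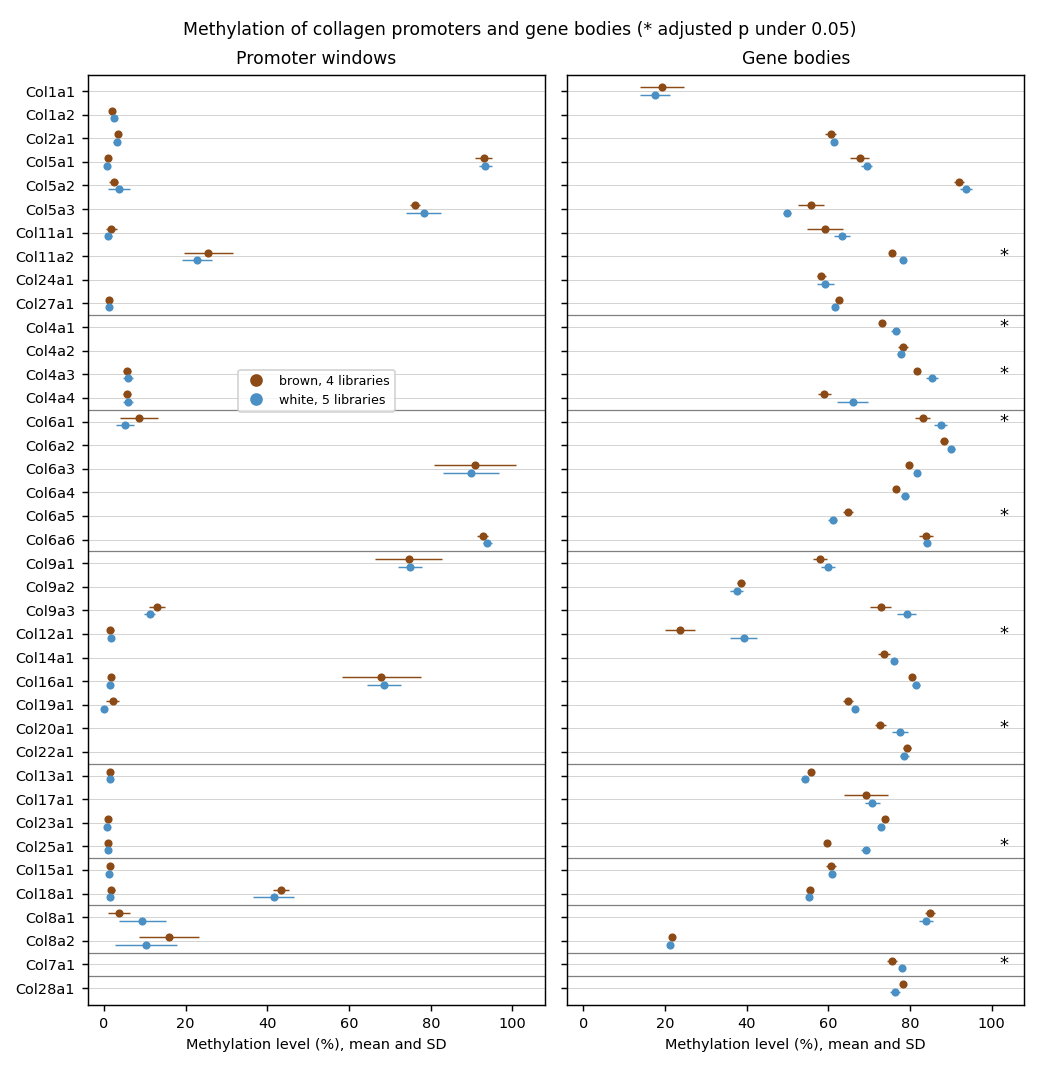
Methylation level (%) of the promoter windows (left) and gene bodies (right) of the 39 collagen genes with a measured cytosine, grouped by class from fibrillar at the top, as the mean and SD of 4 brown and 5 white libraries. Most promoters sit near 0 and most bodies between 50% and 95%, with Col1a1, Col8a2 and Col12a1 low, and the asterisks mark the 9 bodies past the test between brown and white cells.

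Brown and white cells were compared with limma on the logit of the level, log2((level + 1)/(100 − level + 1)), with a term for day 0 against later days, and p-values were adjusted over all features of the table. No collagen promoter passed an adjusted p of 0.05. Of all 11918 promoters, 0.780% passed. By limma, 3 of the 28 collagen windows had an unadjusted p under 0.05, which is 8.82% for all promoters. These were Col19a1, a FACIT collagen of basement membrane zones (adjusted p = 0.243), the long-form window of Col5a1 (0.364) and Col8a1, a short-chain collagen of vessel walls (0.380). Col19a1 rests on 2 cytosines, at 2.27%, 3.57%, 0% and 2.50% in the brown libraries and 0% in each white library. Without BAT day 6, its only brown library at 0%, the adjusted p was 0.00130 and Col19a1 was the only collagen promoter called. The next 2 windows by p, Col6a1 and Col23a1, had adjusted p = 0.728 and 0.752. Among the genes of fat tissue matrix, Col1a2 stood at 2.06% ± 0.240 (SD, n = 4) in brown and 2.35% ± 0.667 (SD, n = 5) in white cells, Col15a1 at 1.51% and 1.19%, the long form of Col18a1 at 1.79% and 1.44%, and Col6a3 at 90.8% and 89.9%. In each of these 4 genes the groups overlapped. Those of the long-form window of Col5a1 did not, at 1.05% ± 0.173 (SD, n = 4) in brown and 0.601% ± 0.154 (SD, n = 5) in white cells.

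Gene bodies differed more often. Of 38 collagen bodies, 9 passed the test, 8 lower in brown cells and 1 higher. Lower in brown were 21.1% of the collagen bodies and 6.57% of all bodies, and higher were 2.63% and 2.67%. Collagen bodies held a median of 42 measured cytosines and all bodies 15, and among bodies with at least 20 cytosines the shares called in either direction were 25.8% of 31 collagen bodies and 11.4% of 5269. The median difference, brown minus white, was -1.65 percentage points over the collagen bodies and -0.273 over all bodies. The 9 genes came from 6 classes, and no class had more than 2 called in the same direction.

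Col25a1 and Col12a1 had the widest differences. Col25a1, a transmembrane collagen that mouse motor neurons need to reach muscle, had body levels of 59.7%, 59.7%, 59.4% and 59.4% in BAT at days 0, 4 and 6 and BAT + NE, and of 69.0%, 70.1%, 70.4%, 67.9% and 68.4% in WAT at days 0, 4 and 6 and BWAT at days 4 and 6. The brown libraries lay close together and the groups did not overlap. The mean difference was 9.61 points and the logit difference -0.59 ± 0.05 (SE) with an adjusted p of 0.000705. In Col12a1, a FACIT collagen on the surface of type I fibrils, the same order of libraries gave 26.6%, 26.8%, 19.6% and 21.5% and 43.5%, 35.7%, 41.6%, 36.6% and 38.8%. The groups did not overlap, and the difference of 15.6 points had an adjusted p of 0.00296. The calls of Col25a1 and Col12a1 held with each of the 9 libraries left out.

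The other 7 called bodies differed by under 5 points. Lower in brown were Col4a1, the common basement membrane chain (73.1% ± 0.726 (SD, n = 4) against 76.5% ± 1.08 (SD, n = 5), adjusted p = 0.0310), and Col4a3 (by 3.68 points, adjusted p = 0.0248). Col6a1, of the type VI filaments that are abundant in fat, was at 83.1% ± 1.89 (SD, n = 4) against 87.5% ± 1.57 (SD, n = 5) (adjusted p = 0.0373). Col11a2 of cartilage fibrils (2.60 points, adjusted p = 0.0271), the FACIT gene Col20a1 (4.77 points, adjusted p = 0.0474) and Col7a1 of the anchoring fibrils of skin (2.26 points, adjusted p = 0.0486) were lower as well. The only body higher in brown was that of Col6a5, a type VI chain, at 64.8% ± 1.11 (SD, n = 4) against 61.0% ± 1.10 (SD, n = 5) (adjusted p = 0.0205). Col5a3, a type V chain made by fat tissue, and Col9a3 of cartilage lay just outside the threshold, with 55.7% against 49.8% (adjusted p = 0.0529) and 72.8% against 79.2% (adjusted p = 0.0522).

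Bodies of the other common matrix genes did not pass. Col6a3 was at 79.8% ± 0.646 (SD, n = 4) against 81.8% ± 0.542 (SD, n = 5) (adjusted p = 0.0673), and Col6a2 at 88.4% against 90.1% (adjusted p = 0.112). Brown and white means were 78.3% and 77.8% in Col4a2, 67.7% and 69.4% in Col5a1, 60.7% and 60.8% in Col15a1, and 55.4% and 55.4% in Col18a1. Col1a1 stood at 19.3% ± 5.40 (SD, n = 4) and 17.5% ± 3.58 (SD, n = 5) (adjusted p = 0.407). The rest ran from -6.96 points in Col4a4 to 1.96 in Col28a1.

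The count of called bodies depended on single libraries. It was 2 without BAT day 6 or BAT + NE, 3 without BAT day 0, WAT day 0 or BWAT day 6, 4 without WAT day 4 or WAT day 6, 5 without BAT day 4 and 6 without BWAT day 4, while 4.84% to 6.52% of all bodies were called in these fits. Without cytosines inside restriction sites, Col6a5 (adjusted p = 0.181), Col11a2 (0.545), Col4a1 (0.0509), Col6a1 (0.0908) and Col7a1 (0.667) were no longer called.

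The genes were also compared stretch by stretch. Of 238 collagen stretches, 17 were lower in brown cells (7.14%, against 5.91% of all stretches) and 7 were higher (2.94%, against 3.52%), shares close to those of the whole table. The 24 stretches lay in 16 of the 39 genes, 0 of them in a promoter window, and 17 were at intermediate levels between 20% and 80%. Of the 9 called bodies, 6 held a called stretch, while Col11a2 (0 of 7 stretches), Col20a1 (0 of 2) and Col7a1 (0 of 4) held none. In all 24 the forward and the reverse strand gave the same direction. The stretches were called on the mean of both strands, so this follows in part from how they were picked. As a measure of read noise, the strands of the 828 collagen CpGs read on both strands outside restriction sites differed with an SD of 7.24 to 9.69 points across the 9 libraries. Sequences are printed for 8 of the 24, the 5 with the widest differences and 3 from Col12a1, Col4a1 and Col6a2 as examples of FACIT, basement membrane and type VI genes, picked with their values known. They are 5′ to 3′ on the forward strand of mm9 (NCBIM37), with the CpGs measured on either strand in capitals. Most begin and end in the CCGG or TCGA sites that bounded the sequenced fragments.
Col25a1 intron 32, chr3:130282582-130282707: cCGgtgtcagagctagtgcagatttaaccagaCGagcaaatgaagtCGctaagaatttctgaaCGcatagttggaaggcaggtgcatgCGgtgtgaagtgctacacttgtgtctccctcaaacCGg
Col25a1 intron 2, chr3:129983461-129983572: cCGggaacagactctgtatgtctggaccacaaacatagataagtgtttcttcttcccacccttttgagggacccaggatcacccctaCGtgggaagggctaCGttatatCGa
Col6a5 intron 26, chr9:105802442-105802588: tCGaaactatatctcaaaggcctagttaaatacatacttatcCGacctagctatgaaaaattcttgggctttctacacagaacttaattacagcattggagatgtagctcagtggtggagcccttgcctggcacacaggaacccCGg
Col23a1 intron 2, chr11:51200444-51200582: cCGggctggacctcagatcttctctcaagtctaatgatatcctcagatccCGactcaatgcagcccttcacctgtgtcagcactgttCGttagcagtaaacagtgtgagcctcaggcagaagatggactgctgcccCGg
Col19a1 intron 44, chr1:24292720-24292852: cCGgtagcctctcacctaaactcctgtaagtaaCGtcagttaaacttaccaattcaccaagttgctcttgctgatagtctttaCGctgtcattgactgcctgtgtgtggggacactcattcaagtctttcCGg
Col12a1 intron 2, chr9:79562298-79562549: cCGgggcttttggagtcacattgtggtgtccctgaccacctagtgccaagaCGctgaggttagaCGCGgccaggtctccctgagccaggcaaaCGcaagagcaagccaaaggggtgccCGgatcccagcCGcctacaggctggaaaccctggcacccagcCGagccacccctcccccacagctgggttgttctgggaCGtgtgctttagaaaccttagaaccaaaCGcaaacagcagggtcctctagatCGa
Col4a1 intron 1, chr8:11296262-11296386: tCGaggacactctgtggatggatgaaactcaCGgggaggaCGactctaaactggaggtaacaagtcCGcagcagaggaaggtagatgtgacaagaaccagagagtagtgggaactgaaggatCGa
Col6a2, coding exon of some transcripts, chr10:76062464-76062533: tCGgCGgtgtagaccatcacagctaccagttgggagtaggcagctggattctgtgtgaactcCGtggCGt
Introns are numbered in the transcript with the longest coding sequence. The Col12a1 window held 11 measured CpGs in 252 bases with 60.3% G and C, and the other 7 held 3 to 6. No other annotated gene overlapped any of the 24 called stretches.

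**Figure D2:**
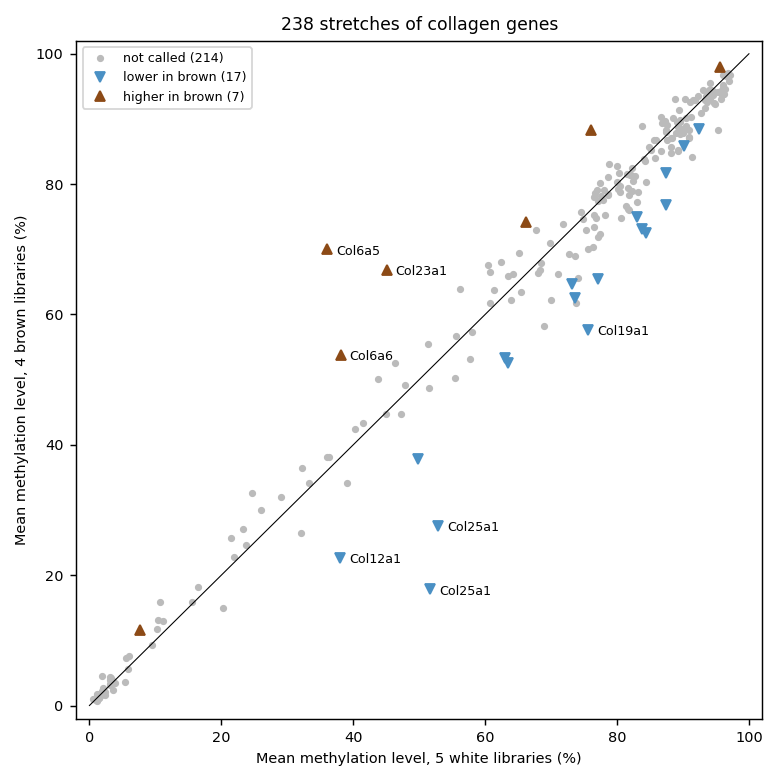
Mean methylation level (%) of the 238 collagen stretches in the 4 brown libraries (vertical) against the 5 white libraries (horizontal). Triangles mark the 17 stretches lower and the 7 higher in brown cells, and the gene is named where the difference was at least 15 points. The 214 uncalled stretches lie along the diagonal, most of them at high levels.

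Col25a1 had 4 called stretches, in introns 32 and 2 and just past its end. In intron 32, 398.8 kb from the start site, the levels were 25.7%, 18.3%, 11.0% and 16.5% in the brown libraries and 43.9%, 52.8%, 55.8%, 56.7% and 48.9% in the white ones. Each of the 9 cytosines was lower in brown, by 13.3 to 47.5 points, and the mean difference was 33.8 points (logit difference -2.30 ± 0.27 (SE), adjusted p = 0.000625). In intron 2, 99.8 kb from the start, brown libraries gave 28.9%, 24.3%, 25.2% and 31.8% and white ones 54.0%, 57.4%, 51.8%, 49.6% and 51.4%. That is 25.3 points lower in brown (adjusted p = 0.000248) with all 7 cytosines in the same direction, although the forward cytosine of the closing TCGA site read only 0.694% and 3.11% against 33.5% and 68.3% on its reverse strand. A second stretch of intron 2 was lower by 11.0 points (adjusted p = 0.0479), and a stretch just past the gene's end by 8.45 points (adjusted p = 0.0206). The stretch past the end lay in the flank and did not enter the body level. The remaining 9 Col25a1 stretches, the promoter among them, did not pass. The promoter stood at 0.908% and 1.05%.

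Type VI genes held both directions within a cluster on chromosome 9. Col6a6, Col6a5 and Col6a4 lie side by side there and encode chains related to that of Col6a3. The Col6a5 stretch in intron 26 was at 69.4%, 71.1%, 69.1% and 70.5% in the brown and 43.1%, 34.2%, 36.6%, 27.8% and 38.7% in the white libraries. It was 33.9 points higher in brown, the widest gap among the collagen stretches (adjusted p = 0.000119), and rests on 4 cytosines of 3 CpGs that were each higher in brown, by 24.0 to 51.1 points. Both ends of that range were restriction-site cytosines. The cytosines outside sites differed by 34.3 and 26.4 points and were too few to be tested as a stretch without the sites. The other 4 Col6a5 stretches did not pass. In intron 33 of Col6a6 the brown mean was 53.8% and the white mean 38.1% (adjusted p = 0.0163). Col6a4 was lower in brown in exon 9, at 37.9% against 49.8% (adjusted p = 0.0171), and in intron 16 by 5.67 points (adjusted p = 0.0148). Without BAT day 4 the exon 9 stretch had an adjusted p of 0.0556.

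Col6a1 and Col6a2, neighbours on chromosome 10, were both lower in brown. The Col6a2 stretch of 8 cytosines had 64.5%, 64.4%, 69.5% and 63.3% in the brown and 78.1%, 75.4%, 78.7%, 75.1% and 78.6% in the white libraries, a gap of 11.7 points (adjusted p = 0.00504). The Col6a1 stretch around exon 23 was lower by 8.07 points (adjusted p = 0.0306), with all 12 cytosines in the same direction, and it passed in 2 of the 9 fits with a library left out. Neither gene had overlapping groups in its called stretch.

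Among the FACIT genes, Col12a1 and Col19a1 each had 1 called stretch. In Col12a1 it lay in intron 2, 4.1 kb from the start, and with 21 of the 24 body cytosines it made up nearly all of the body result. Its levels were 26.3%, 25.7%, 18.5% and 20.1% in the brown and 42.8%, 33.4%, 39.7%, 35.2% and 38.8% in the white libraries. Of the 21 cytosines, 20 were lower in brown (mean difference 15.3 points, adjusted p = 0.00225), and the Col12a1 promoter stood at 1.53% and 1.59%. Col19a1 intron 44 had 62.1%, 55.6%, 54.0% and 58.8% in the brown and 78.0%, 75.2%, 73.0%, 75.1% and 76.9% in the white libraries. All 6 cytosines were lower in brown, by 4.05 to 36.1 points (adjusted p = 0.000313), while the whole Col19a1 body differed by 1.70 points (adjusted p = 0.197).

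**Figure D3:**
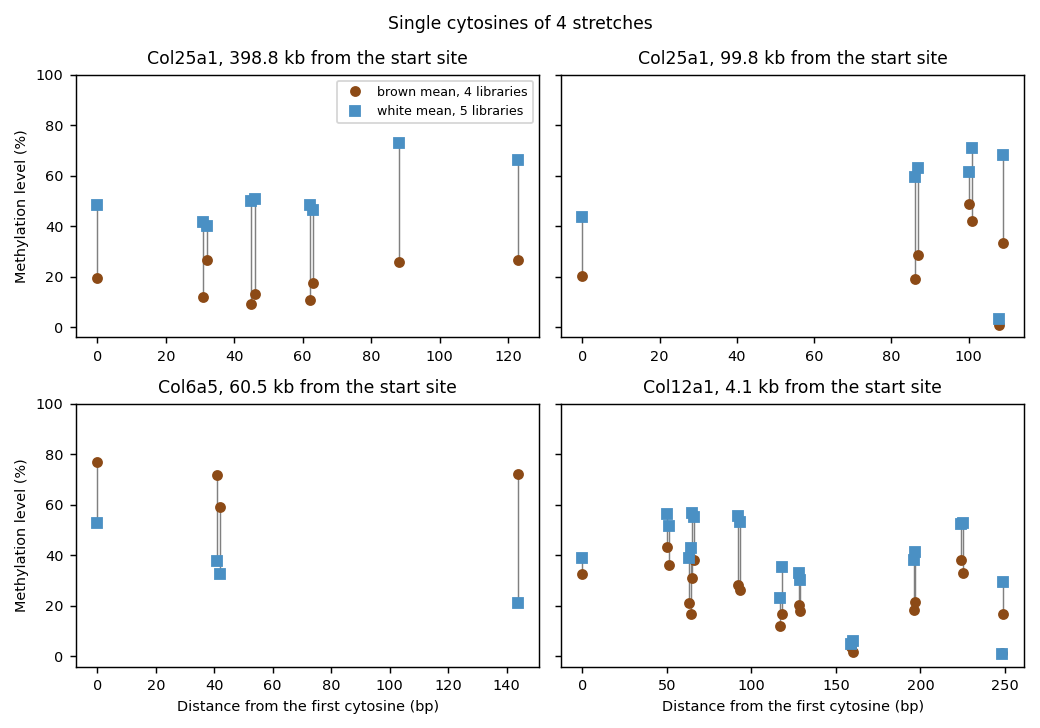
Methylation level (%) of each measured cytosine in 4 stretches, as the mean of 4 brown libraries (circles) and of 5 white libraries (squares), against its distance in bp from the first cytosine of the stretch. Nearly all cytosines of a stretch differ in the same direction, lower in brown in both Col25a1 stretches and Col12a1 and higher in brown in Col6a5.

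Col23a1, a transmembrane collagen with 26 measured stretches, was the most mixed gene. In its intron 2, 3 stretches were higher and 1 was lower in brown. The stretch 97.1 kb from the start had 67.8%, 68.3%, 60.5% and 70.7% in the brown and 45.4%, 40.3%, 46.7%, 52.4% and 40.5% in the white libraries, 21.8 points higher in brown (adjusted p = 0.00259). At 74.3 kb the means were 88.3% and 76.1% (adjusted p = 0.000396), with 33.1 points at a restriction-site cytosine and 3.34 to 6.78 at the other 3. At 132.9 kb brown cells were lower, 72.5% ± 8.43 (SD, n = 4) against 84.4% ± 3.41 (SD, n = 5), with an adjusted p of 0.0274. That call held in 3 of the 9 fits with a library left out, and over the whole body of 201 cytosines the means were 73.8% and 72.9%.

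The called stretches of basement membrane and type V genes were all lower in brown. Col4a1 intron 1 was at 74.8%, 76.1%, 80.6% and 75.7% in the brown and 86.5%, 85.5%, 86.0%, 88.9% and 90.1% in the white libraries, and the groups did not overlap (adjusted p = 0.00395). Its widest cytosine difference, brown minus white, was -32.8 points at a restriction site, and the other cytosines ran from -16.4 to 2.30 points. Col4a4 around exon 28 was lower by 11.1 points (adjusted p = 0.0271) and Col4a3 around exon 4 by 4.24 points (adjusted p = 0.0277). Col4a2, read from the same promoter region as Col4a1 in the opposite direction, had 0 of 9 stretches called. In Col5a1 a stretch of intron 29 was lower by 10.6 points (adjusted p = 0.0230) and a stretch of the last exon by 9.66 points (adjusted p = 0.0232), out of 13 stretches. The 2 stretches of Col5a3 did not pass, at 7.99 and 2.18 points higher in brown. The 4 called stretches not described so far lay in Col28a1 (74.2% against 66.2%), Col24a1 (11.5% against 7.70%), Col13a1 (88.5% against 92.4%) and Col23a1 (97.9% against 95.6%).

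Of the 24 stretch calls, 12 held with each of the 9 libraries left out, among them all those of Col25a1, Col6a5, Col12a1, Col19a1 and Col23a1 with differences over 12 points, and the first-intron stretch of Col4a1. The count was 14 without BAT day 4 and 15 without BAT + NE, and 17 to 22 without any other library. The shares of all stretches called in these fits are not given here, so the counts cannot be set against the whole table.

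**Figure D4:**
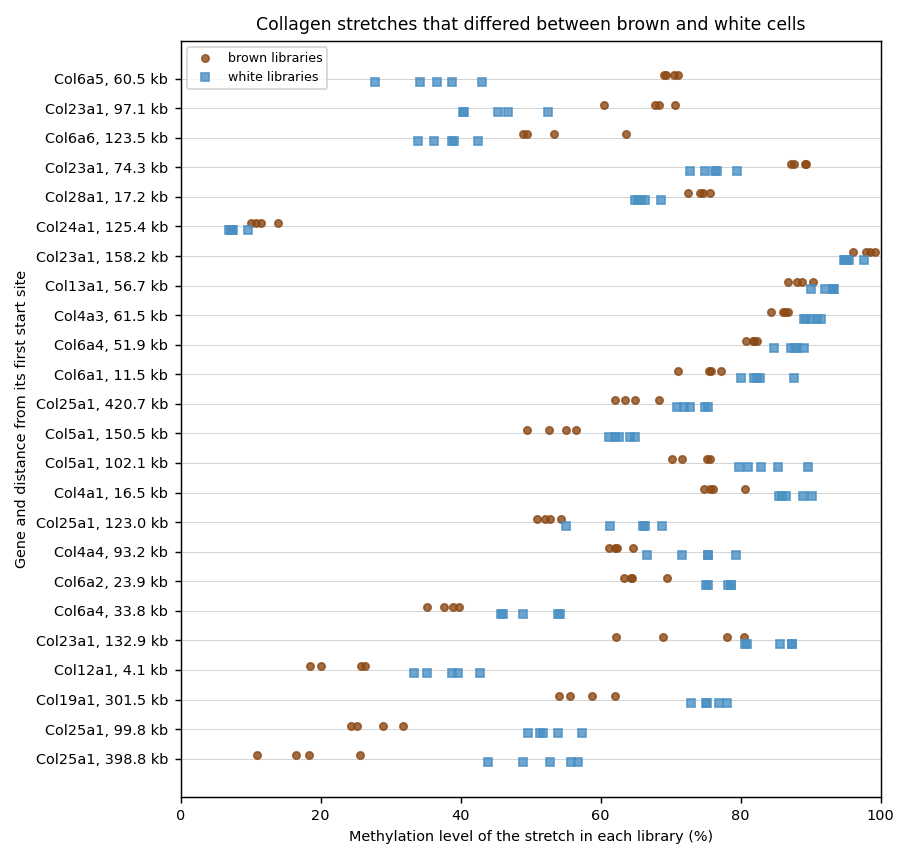
Methylation level (%) in each of the 4 brown (circles) and 5 white (squares) libraries for the 24 called collagen stretches, named by gene and by distance in kb from the gene's first start site, from the widest gain in brown at the top to the widest loss at the bottom. Mean levels of brown and white libraries differ by over 15 points in the top 3 stretches and in the bottom 4.

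Differentiation changed no collagen feature beyond the test. Of the 28 promoters, 38 bodies and 238 stretches, 0 passed limma's adjusted p of 0.05 between the 2 day 0 libraries and the 7 later ones, and 2, 2 and 25 had an unadjusted p under 0.05, as did 6.30% of all promoters, 10.7% of all bodies and 8.57% of all stretches. Among all features, 0.0420% of promoters, 0.136% of bodies and 0.173% of stretches passed. The median change of the collagen bodies, later minus day 0, was 0.359 points, and 0.471 over all bodies.

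Col1a1, which encodes the main chain of type I collagen, came closest. Its body levels at days 0, 4 and 6 were 11.6%, 19.9% and 23.8% in BAT and 12.1%, 17.3% and 21.1% in WAT, with 16.8% and 20.4% in BWAT at days 4 and 6 and 22.0% in BAT + NE. Both day 0 libraries were below all 7 later ones, and day 6 was above day 4 in BAT, WAT and BWAT. The mean difference was 8.35 points (logit difference 0.87 ± 0.14 (SE)), with an unadjusted p of 0.000332 and an adjusted p of 0.0797. Over 15 other settings the adjusted p ran from 0.0661 to 0.555, the highest without BAT day 0. Col1a1 was the only collagen body with both day 0 libraries below all later ones, a pattern that 6.42% of all bodies had, and 0 collagen bodies had the opposite pattern (2.18% of all bodies).

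The Col1a1 stretches with the smallest p overlapped coding exons of the triple helix region and its end. These windows are shown for their position in the repeat-coding sequence, 5′ to 3′ on the forward strand of mm9, which is the coding strand of Col1a1, with measured CpGs in capitals.
Col1a1 around exon 13, chr11:94802576-94802671: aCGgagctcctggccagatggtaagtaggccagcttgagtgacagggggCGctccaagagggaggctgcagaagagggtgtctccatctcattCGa
Col1a1 around exon 47, chr11:94811443-94811715: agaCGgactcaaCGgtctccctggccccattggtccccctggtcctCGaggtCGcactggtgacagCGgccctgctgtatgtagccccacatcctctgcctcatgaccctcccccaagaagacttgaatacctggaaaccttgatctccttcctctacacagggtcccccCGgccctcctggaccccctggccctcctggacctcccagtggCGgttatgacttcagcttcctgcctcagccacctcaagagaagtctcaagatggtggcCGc
In the exon 47 stretch (17 cytosines, the first of which lies before the printed window) the levels were 24.1%, 35.5% and 46.8% in BAT at days 0, 4 and 6, 23.9%, 31.1% and 39.2% in WAT, 30.4% and 36.8% in BWAT, and 39.4% in BAT + NE. The later libraries were above day 0 at 15 of the 17 cytosines, by up to 30.1 points (adjusted p = 0.256). The exon 13 stretch stood at 4.09% and 5.21% at day 0 and between 8.74% and 18.4% later (adjusted p = 0.196). Part of the exon 13 window is intron, and its cytosines at 94802625 and 94802626, past the exon, were higher later by 5.04 and 14.1 points. A stretch of intron 1 was at 1.53% at day 0 and 2.15% later, and a stretch of intron 25 at 3.54% and 4.86%. For a Col1a1 stretch past the gene's end, the adjusted p of the day 0 term was 0.518.

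**Figure D5:**
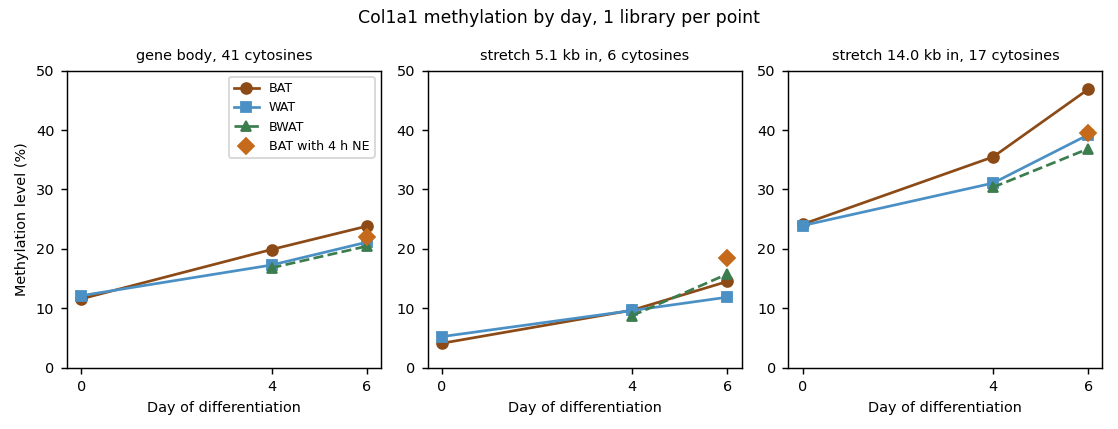
Methylation level (%) of the Col1a1 body and of the stretches around exons 13 and 47 (5.1 kb and 14.0 kb from the start) against the day of differentiation, 1 library per point. In all 3 panels the day 0 levels of BAT and WAT are the lowest and the day 6 levels exceed those of day 4, while none passed the adjusted test.

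Other differentiation differences were smaller or less regular. The stretch of Col8a2 in intron 2 had the smallest unadjusted p (0.000277), at 5.84% and 5.97% at day 0 and between 1.39% and 2.96% later (adjusted p = 0.101). In Col27a1, a fibrillar collagen of cartilage, a stretch of intron 1 stood at 2.13% at day 0 and 4.12% later (adjusted p = 0.350). The promoter of Col11a2 was at 19.3% and 17.6% at day 0 and between 21.3% and 33.6% later (adjusted p = 0.664), and that of Col16a1 followed by p (0.947% and 1.67%, adjusted p = 0.725). For bodies, Col5a1 came next after Col1a1, with 66.0% at day 0 and 69.3% later (adjusted p = 0.357), then Col7a1 (0.470), Col12a1 (0.522) and Col11a1 (0.541). Both day 0 libraries were below all later ones in 13 of the 238 stretches (5.46%, against 4.68% of all) and above them in 10 (4.20%, against 2.32%).

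Whether the change from day 0 differed between brown and white cells was tested by an interaction term. By limma, 0 of 238 collagen stretches passed, 15 had an unadjusted p under 0.05 (4.60% of all stretches did), and 0.00149% of all stretches passed. Collagen promoters and bodies had 0 passing as well, as had all promoters and all bodies (0.00%), with 3 of 28 and 1 of 38 at an unadjusted p under 0.05, against 4.27% and 4.63%. The 5 smallest unadjusted p-values belonged to Col12a1 before its start site (0.000878), Col5a3 intron 6 (0.00417), Col7a1 intron 43 (0.00656), Col25a1 intron 32 (0.0115) and Col18a1 intron 5 (0.0119), all with adjusted p of at least 0.684. In the Col5a3 stretch BAT day 0 stood at 42.8% and the 3 other brown libraries between 28.3% and 30.6%, while the 5 white libraries ran from 20.7% to 28.0%.

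Norepinephrine was compared within pairs of libraries, with no replicate and no test. BAT + NE differed from BAT day 6 by 10 points or more in 11 of 238 collagen stretches (3.59% of all stretches did), BWAT from WAT at day 4 in 4 (2.56%) and at day 6 in 7 (2.42%). Col24a1, a fibrillar collagen, had the only stretch past 10 points in all 3 pairs. In its intron 55, BAT + NE stood at 71.7% and BAT day 6 at 61.6%, BWAT and WAT at 59.8% and 73.9% at day 4 and at 70.9% and 87.4% at day 6. BWAT was thus lower than WAT on both days and BAT + NE higher than BAT. The body pairs of the 38 genes differed by a median of -0.00914, -0.122 and -0.0465 points, and 1, 0 and 0 of them by 10 points or more (2.67%, 1.96% and 1.93% of all bodies). The 1 was Col17a1, a transmembrane collagen of skin (-12.1 points in BAT + NE over 10 cytosines). Of the 28 promoter windows, 1, 2 and 2 were past 10 points (1.68%, 1.29% and 1.33% of all promoters). Col8a2, read at 2 cytosines, was at 21.2% in BAT + NE and 9.09% in BAT day 6, and at 23.7% in BWAT and 5.71% in WAT at day 4, but at 7.14% and 9.09% at day 6. The others were Col8a1 (3 cytosines, 4.17% in BWAT and 18.8% in WAT at day 4), the short-form window of Col18a1 (45.2% and 33.9% at day 6) and Col5a3 (2 cytosines, 81.6% and 71.5% at day 6).

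A list of 63 other genes was measured in the same way. They serve collagen biosynthesis, export, crosslinking, degradation and fibril assembly, or encode collagen receptors. By limma, 0 of the list's 40 promoter windows passed between brown and white cells, with 3 at an unadjusted p under 0.05, and of its 55 bodies 1 was higher in brown and 2 were lower, 5.45% in all. The shares of all features were 0.780% of promoters, and 2.67% of bodies higher and 6.57% lower. Pcolce, the enhancer of procollagen C-proteinase, had body levels of 17.2% ± 4.97 (SD, n = 4) in brown and 11.0% ± 1.99 (SD, n = 5) in white cells (adjusted p = 0.0407). The Pcolce groups overlapped, with BAT day 0 at 11.7% and BWAT day 6 at 12.7%, and its mean was 9.96% at day 0 and 14.8% later. Thbs1, an adhesive matrix glycoprotein, was at 78.7% ± 1.16 and 82.3% ± 0.703 (adjusted p = 0.0147), and fibronectin, Fn1, at 76.9% ± 1.66 and 80.5% ± 1.22 (adjusted p = 0.0479). Differentiation changed 0 of the 40 promoters and 0 of the 55 bodies by limma, with 4 and 6 at an unadjusted p under 0.05 (6.30% of all promoters and 10.7% of all bodies).

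The labels were checked on 16 marker genes, of which 11 had a promoter that could be tested. Ebf2 of brown precursors and Myf5 of the muscle and brown lineage were lower in brown cells and Hoxc9 and Hoxc10 of the posterior white depot were higher, each with no overlap between groups. The other 2 brown precursor genes overlapped, with Zic1 near 12% in both groups (adjusted p = 0.971) and Prdm16 at 0.895% and 0.918% (adjusted p = 0.988). Pparg and Cebpa were under 2% in all libraries. Of the other cell types, the endothelial promoter Pecam1 stood at 48.5% ± 3.25 (SD, n = 4) in brown and 72.2% ± 2.44 (SD, n = 5) in white cells (adjusted p = 0.00201), while Cdh1 and Sox10 did not pass. The part of other cells in the collagen differences was not tested. Over all 12525 bodies the library means ran from 62.1% to 62.9% in brown and from 62.9% to 63.4% in white cells, and over the collagen body cytosines from 65.4% to 66.4% and from 66.6% to 67.4%.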

How the data were processed

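The authors deposited 1 table of percent methylation for 838481 autosomal CpG cytosines, each strand apart, that were covered by 10 or more reads in each of the 9 libraries. The submitters' processing notes name Bowtie and mm9, with no Bowtie version stated. The deposited percent values carry no read counts, so the Fisher test of reads in the study's methods could not be run and no interval is given. The table held 189016 cytosines inside restriction sites, where end repair can set the base that is read.

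Feature levels were means over cytosines. They were tested with limma 3.58.1 (R 4.3.3) on log2((level + 1)/(100 − level + 1)) over all 9 libraries, with terms for lineage and for day 0, and Benjamini-Hochberg adjustment over all features of a kind. The fits were tested on simulated data. Named were the features past adjusted p of 0.05, up to the 20 widest, or the 5 smallest p, and 11 matrix genes of fat tissue. The collagen genes and the other lists were chosen with earlier results of these data known. Alternatives were each library left out, the 6 libraries without norepinephrine, other scales, pseudocounts and minimum cytosine numbers, other start sites, single strands, no restriction-site cytosines and a 10-point rule. 0 columns belonged to samples of another series. Python 3.11.15 was used for the rest.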

Additional observations from a re-analysis of the deposited data

Results flagged for a closer look

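A library was set apart when its gap to the nearest other library of its lineage took up most of the range of that lineage (Dixon's 95% limit). This was applied to the features named in the text, for the 4 brown and the 5 white libraries, which differ in day, and chance gives about 1 in 20 such cases. It picked out 6 of 130. Among white libraries these were WAT day 6 in the Col11a2 body (79.1%, the others 77.9% to 78.2%), WAT day 4 in the Col23a1 stretch 158.2 kb from the start (97.6%, the others 94.7% to 95.4%), and WAT day 0 in the called Col24a1 stretch (9.58%, the others 6.96% to 7.46%) and in the Col8a2 stretch of intron 2 (5.97%, the others 1.95% to 2.96%). Among brown libraries BAT day 0 stood apart in the Col5a3 stretch of intron 6 (42.8%, the others 28.3% to 30.6%) and in the Col7a1 stretch of intron 43 (87.4%, the others 77.6% to 78.6%). The Col8a2, Col5a3 and Col7a1 stretches were named for a small p of the day 0 term or its interaction, so a day 0 library that stands apart in them follows from how they were picked.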

How the results depend on the processing

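With 1 library per condition and unknown depth, small differences between libraries cannot be resolved. The labels give no replicate numbers, and no source says that cells of the same day came from the same animals, so pairs were formed by day only, as day terms in the 6 libraries without norepinephrine. Collagen promoters called between brown and white numbered 0 to 1 when a library was left out and 0 under every other alternative run. Called bodies fell from 9 to between 2 and 6 with a library left out, to 0 in the 6 libraries without norepinephrine (where 0 of all 12525 bodies passed), and to 4 without restriction-site cytosines. The shares of all bodies called without these cytosines, or picked by the 10-point rule, are not given here. The fall to 4 therefore cannot be set against the whole table. The 10-point rule between BAT and WAT picked 1 body, Col12a1. It asked at each of the 3 days for 2 or more cytosines at least 10 points apart, and none so far apart the other way. A body with many cytosines can fail this through 1 of them, so the count cannot be set against limma's calls. Called stretches fell from 24 to between 14 and 22 with a library left out, to 4 in the 6 libraries, and to 10 on the forward and 10 on the reverse strand alone, where fewer cytosines enter. The shares of all stretches called in these fits are not given here. The stretch counts therefore do not show whether collagen stretches lost more calls than others. Leaving out BAT day 0 or WAT day 0 gives the same lineage estimate, since the day term then absorbs the other. Differentiation and its interaction with lineage called 0 collagen features under each alternative run. No called feature changed direction. The cause of these changes was not tested.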
